A study of Mus musculus with 36 samples.

Results

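The step between 6 h and 12 h of Ikaros induction was measured by DNase-seq, which sequences short DNA fragments released where the enzyme DNase I cuts open chromatin. It covered 6 of the 36 libraries, the 3 of the Ikaros line at 12 h and the 3 of the same line at 6 h, over all 52788 DNase hypersensitive sites (DHS) of the consensus list. The cells were B3, a mouse pre-B lymphocyte line, transduced with a retroviral vector that encodes HA-tagged Ikaros fused to the hormone-binding domain ERt2 of the estrogen receptor, followed by GFP. Both groups received 0.5 µM 4-hydroxytamoxifen (4-OHT), which lets the fusion protein enter the nucleus, 6 h or 12 h before collection. The empty-vector line (called Control) was given the same drug for the same times, with 3 libraries at each, and was used for comparison. Replicates 4, 5 and 6 belong to batches 11, 12 and 13 of both lines. Libraries of the other times are used as background. According to the methods of the study, 0 h cells received no 4-OHT and were obtained separately, whereas the labels give 0.5 µM for them too. The vector is a mouse stem cell virus construct, and the cells keep their own Ikzf1 gene besides it.

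Ikaros, encoded by Ikzf1, is a zinc finger transcription factor that drives large cycling pre-B cells towards growth arrest and differentiation, and it binds DNA around the letters GGGAA. DHS mark promoters, enhancers and insulators. At insulators and chromatin loop anchors the main bound protein is CTCF, whose long recognition sequence leaves a narrow protected patch inside an open site. Promoter DHS of growing cells are mostly GC-rich and constitutively open, whereas distal DHS carry more of the cell-type and stage-specific signal.

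Few sites passed a test between 6 h and 12 h. In limma, 51 DHS had a Benjamini-Hochberg adjusted p under 0.05, which is 0.0966% of the 52788 tested. Of these, 50 rose (0.0947%) and 1 fell (0.00189%). The single DHS that fell lies over an Ikzf1 exon. Of the 50 that rose, 25 lay between genes, 21 in introns, 1 in an exon and 3 at promoters, and 46 were narrow sites of at most 200 bp. The median DHS of the 50 rose by 1.07 on the log2 scale, with a range from 0.71 to 1.39, where values are log2 of RPKM (reads scaled by site length and library size) after the authors' further normalisation.

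Among the DHS that rose, 23 of 50 (46.0%) held the core of the CTCF recognition sequence, searched on both strands as CCA, any 2 bases, AG, any 2 bases and GGC, compared with 20.3% of all narrow distal DHS and 8.87% of promoter DHS. The 4 DHS with the largest differences among those 23, leaving out exons, are shown because they carry that core in the middle of a narrow site. Capitals mark the core, letters come from GRCm38 (mm10), and the strand is the one on which the core reads as spelled.

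chr17:40430585-40430730 (minus strand, between genes, nearest coding gene Esp8): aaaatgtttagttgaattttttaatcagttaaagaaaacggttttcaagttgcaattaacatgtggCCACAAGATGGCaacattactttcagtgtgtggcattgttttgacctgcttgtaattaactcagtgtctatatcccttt
chr5:66263482-66263622 (plus strand, intron of Nsun7): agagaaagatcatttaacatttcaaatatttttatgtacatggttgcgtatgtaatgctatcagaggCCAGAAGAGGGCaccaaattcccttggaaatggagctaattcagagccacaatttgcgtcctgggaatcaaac
chr1:23495547-23495683 (minus strand, between genes): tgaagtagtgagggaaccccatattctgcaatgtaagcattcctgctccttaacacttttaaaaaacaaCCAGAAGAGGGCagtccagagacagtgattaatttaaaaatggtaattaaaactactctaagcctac
chr11:102299992-102300126 (plus strand, between genes): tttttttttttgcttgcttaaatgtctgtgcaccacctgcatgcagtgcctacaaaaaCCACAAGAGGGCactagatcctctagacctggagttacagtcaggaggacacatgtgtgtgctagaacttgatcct

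The core sat close to the middle of these sites. In the 4217 narrow distal DHS that held it, the nearest core lay a median of 5 bp from the centre, and 97.7% lay within 25 bp. In the 20 narrow distal DHS that rose and held it, the median distance was 3.5 bp. These letters were chosen after the sequences of the DHS that rose had been read, so the shares are a description with no test, and a match is not evidence that CTCF was bound.

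The 5 largest rises were all at narrow distal sites. In an intron of Ptprz1, a receptor tyrosine phosphatase gene, the DHS at chr6:22968247-22968392 held 3.70, 2.98 and 3.04 in replicates 4, 5 and 6 at 6 h and 4.38, 4.70 and 4.81 at 12 h. The highest 6 h library stayed below the lowest 12 h library, as in 10.1% of all DHS, while the reverse held in 8.07%. Lack of overlap was a condition for naming a called DHS here. The difference was 1.39 (SE 0.23, limma adjusted p = 0.0354).

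The intergenic DHS at chr17:40430585-40430730, 89365 bp from the start of Esp8, held 3.48, 2.66 and 2.74 at 6 h and 4.45, 3.90 and 4.69 at 12 h, again without overlap. Its difference was 1.39 (SE 0.26, limma adjusted p = 0.0488), and the call was lost when batches were fitted as a replicate block (limma adjusted p = 0.0571). Replicate 4 was the highest of the 6 h libraries at both sites.

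In an intron of Galntl6, which encodes a GalNAc-transferase-like protein, the DHS at chr8:57966800-57966940 held 3.67, 3.92 and 3.40 at 6 h and 5.30, 4.91 and 4.90 at 12 h. This was a difference of 1.38 (SE 0.21, limma adjusted p = 0.0315). The SD of the 3 values was 0.26 at 6 h and 0.23 at 12 h.

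Among these 5, the intron DHS of Nsun7, an RNA methyltransferase family gene, had the closest values at 12 h, with 3.88, 3.57 and 3.83 at 6 h and 5.15, 5.11 and 5.10 at 12 h (difference 1.36, SE 0.17, limma adjusted p = 0.0109). In an intron of the noncoding gene 4930545L08Rik, the DHS at chr9:111917317-111917459 held 3.72, 3.56 and 3.43 at 6 h and 5.07, 4.88 and 4.70 at 12 h (difference 1.32, SE 0.17, limma adjusted p = 0.0109). These sites had the smallest adjusted p of the 51.

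The 3 promoter DHS that rose were narrow as well. At Tmem232 the 6 h values were 4.22, 3.94 and 3.63 and the 12 h values 5.34, 4.76 and 5.17 (difference 1.16, SE 0.18, limma adjusted p = 0.0315). At Gm13905, a predicted gene, they were 4.17, 3.91 and 3.39 against 4.93, 4.73 and 4.83 (difference 1.01, SE 0.18, limma adjusted p = 0.0465). At Gm24433, another predicted gene, they were 3.55, 3.81 and 3.60 against 4.73, 4.44 and 4.41 (difference 0.88, SE 0.15, limma adjusted p = 0.0354).

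**Figure D1:**
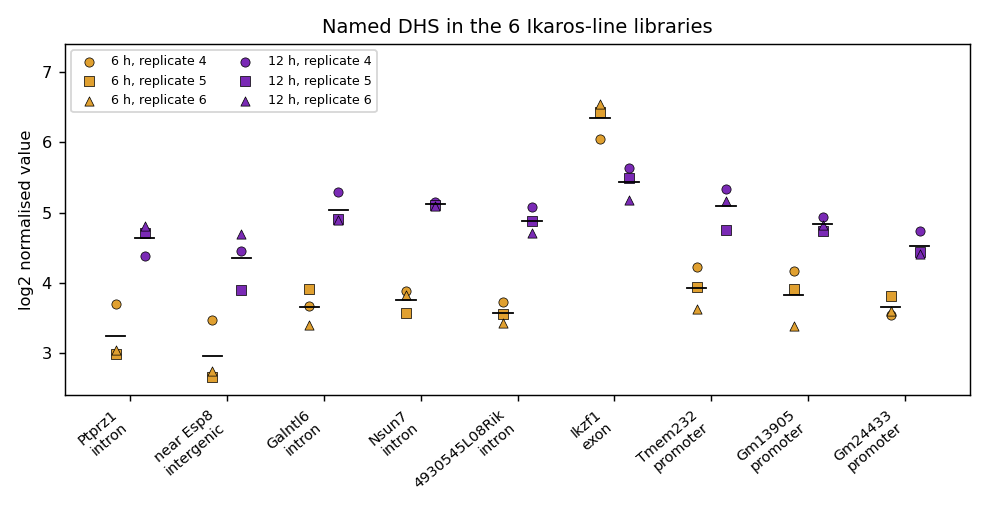
Log2 normalised value (vertical axis) of the 9 named DHS in the 3 Ikaros-line libraries at 6 h (orange) and the 3 at 12 h (purple), with a marker for each replicate and a black line at each mean. The 9 DHS were chosen among called DHS whose values at the 2 times do not overlap, so that separation is fixed by the choice. Of them 8 are higher at 12 h and the Ikzf1 exon is lower.

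The count of 51 rests on the whole set of libraries, on the scaling and on the variance model. It was 2 after quantile normalization, 1 after trends with level, GC content and width were removed, and 287 with promoter centring. No DHS was called without replicate 6 of 6 h (3648 at an unadjusted p under 0.05), nor when replicate 5 (4203) or replicate 6 (3595) was left out of every time. Without replicate 4, 5 or 6 of 12 h the count was 1, 1 and 3. Without replicate 5 of 6 h it was 8, without replicate 4 of 6 h it was 111, and without replicate 4 of every time it was 4. With all 36 libraries sharing 1 spread limma called no DHS, with 1297 at an unadjusted p under 0.05. It also called none with the 18 Ikaros libraries (3727) or with the 6 libraries of the comparison alone (6194), whereas 6356 (12%) had such a p in the fit to the 15 induced Ikaros libraries. Each of the 50 was called in 4 to 12 of up to 21 alternatives. All 50 kept their positive sign in every alternative. They were chosen for their rise and had no overlap between the times. That fixes the sign in the fits that left out libraries.

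The only fall that passed the test was at Ikzf1 itself. The DHS at chr11:11768688-11769688 held 6.05, 6.42 and 6.55 at 6 h and 5.63, 5.49 and 5.18 at 12 h, a fall of 0.91 on the log2 scale (SE 0.14, limma adjusted p = 0.0315). It was called in 8 of the 21 alternatives. Its sign stayed negative in all 21, which the lack of overlap fixes in the fits that left out libraries. Its mean in the Ikaros line was 6.46 at 0 h and 5.72 at 2 h. It stood at 6.30 at 18 h and 6.09 at 24 h. The DHS was chosen for its fall to 12 h, which favours a higher value at 18 h. From 12 h to 18 h limma called 0 DHS. In the empty-vector line its mean at 0 h was 2.86. The other 5 DHS in Ikzf1 exons away from promoters were also lower at 12 h, from -0.75 to -0.52, and none of them passed the test. The 8 intron DHS of Ikzf1 ranged from -0.31 to 0.31. At 6 h the exon DHS stood 2.08 to 4.08 above the empty-vector line and the intron DHS between -0.51 and 0.94. The vector carries the Ikaros coding sequence, so reads from vector and gene cannot be told apart in coding exons, and the part of vector DNA in the 12 h value was not tested.

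The DHS that rose between 6 h and 12 h were also followed at the other times. Over the 50 that rose, the mean over DHS in the Ikaros line was 4.01 after 2 h of drug and 3.75 after 6 h. It stood at 4.81 after 12 h, then at 4.13 (18 h) and 4.63 (24 h). The library means over the 50 ran from 3.64 to 3.86 at 6 h and from 4.76 to 4.84 at 12 h. They were 4.08 to 4.20 after 18 h and 4.61 to 4.65 after 24 h. The 50 were chosen on these 6 h and 12 h values, so the separation of those times is fixed by the choice. That choice also favours 2 h values above those at 6 h and 18 h values below those at 12 h. The course of these means is therefore a description only. At 0 h, without drug according to the methods, the mean over the 50 was 2.38 and the library means ranged from 1.77 to 3.52.

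In the empty-vector line the same 50 DHS gave means of 4.20 at 6 h and 4.06 at 12 h. There 17 were higher and 33 lower at 12 h, with a median difference of -0.12 and a range from -1.35 to 0.98, and 47.8% of all DHS were higher. No DHS was called in that line (0 of 52788, 0%, by limma), with 2442 (4.63%) at an unadjusted p under 0.05. None of the 50 passed the test of the difference between the lines, where the smallest limma adjusted p among them was 0.701. That test used the spread of all 36 libraries, with which the Ikaros step itself gave no call. All 50 differences between lines were above 0 (median 1.24), in sites chosen for their rise in the Ikaros line. In limma 16 of them had an unadjusted p under 0.05, beside 3493 of 52788 over all DHS. The step in these 50 sites is therefore not shown to differ from the step in the empty-vector line.

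**Figure D2:**
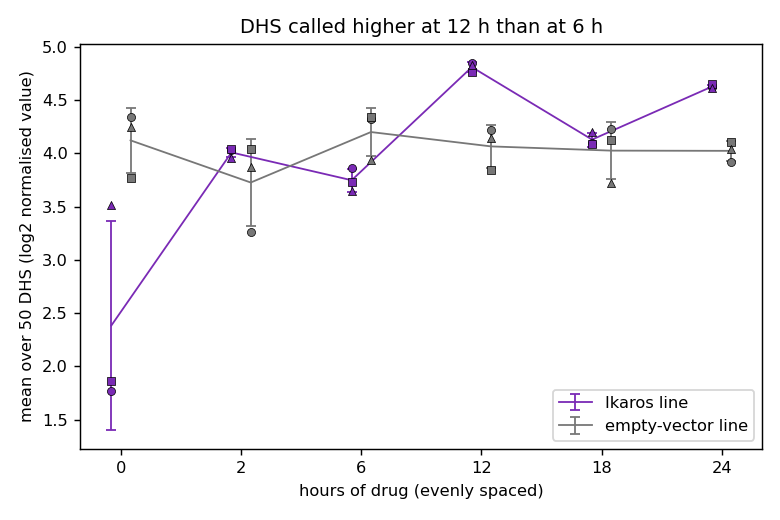
Mean of the 50 DHS that rose between 6 h and 12 h (log2 normalised value, vertical axis) in each library at each hour of drug, with the mean and SD of 3 libraries for the Ikaros line (purple) and the empty-vector line (grey). The Ikaros libraries step from between 3.64 and 3.86 at 6 h to between 4.76 and 4.84 at 12 h and are at 4.08 to 4.20 at 18 h, while the empty-vector libraries stay between 3.84 and 4.34 at 6 h and 12 h. The DHS were chosen for their rise in these Ikaros libraries, so that step is fixed by the choice. The choice also favours values at 2 h above those at 6 h and values at 18 h below those at 12 h.

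The only DHS called in the test of the step between the lines, 1 of 52788 (0.00189%), lay between genes on chromosome 14, 137907 bp from the start of Slitrk6, a neuronal transmembrane protein gene. In the Ikaros line it held 3.65, 3.53 and 2.93 at 6 h and 4.04, 4.12 and 4.18 at 12 h. In the empty-vector line its mean was 4.25 ± 0.15 (SD, n = 3) at 6 h and 1.99 ± 0.21 (SD, n = 3) at 12 h. The step differed by 3.01 (SE 0.48, limma adjusted p = 0.0297), of which -2.26 was the step of the empty-vector line and 0.75 that of the Ikaros line, and neither passed its own test. Leaving out any 1 of the 12 libraries other than replicate 6 of Control 12 h ended the call.

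Across the whole table the step separated promoters from distal sites. The median difference between 12 h and 6 h was -0.15 over the 13657 promoter DHS and 0.09 over the 39131 distal DHS, with 0.08 in exons, 0.09 in introns and 0.09 between genes. At promoters 77.6% of DHS were lower at 12 h, and in distal DHS 63.6% were higher. All 3 libraries of 12 h lay below all 3 of 6 h in 19.3% of promoter DHS and above them in 2.69%, while in distal DHS the shares were 4.13% and 12.7%.

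The shift was visible in every replicate. The median over promoter DHS was 4.56, 4.63 and 4.72 in replicates 4, 5 and 6 at 6 h and 4.42, 4.52 and 4.53 at 12 h, so the groups did not overlap. The median over distal DHS was 3.88, 3.83 and 3.80 at 6 h and 3.99, 3.94 and 3.94 at 12 h, again without overlap. Promoter minus distal was 0.80 ± 0.12 at 6 h and 0.53 ± 0.09 at 12 h (SD, n = 3), lower at 12 h by 0.26, 0.22 and 0.32 within replicates 4, 5 and 6. The two-sided exact permutation test gave p = 0.1, the smallest that 3 against 3 can give, and 0.133 after adjustment over 4 measures.

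The gap at 12 h was the smallest of the Ikaros line, compared with 1.04 ± 0.06 (0 h), 0.73 ± 0.05 (2 h), 0.71 ± 0.13 (18 h) and 0.57 ± 0.04 (24 h), as SD of 3 libraries. The 24 h libraries, from 0.53 to 0.62, overlapped the 12 h libraries, from 0.43 to 0.60. In the empty-vector line the gap was 0.69 ± 0.08 at 6 h and 0.79 ± 0.21 at 12 h (SD, n = 3), higher in 2 of 3 batches (exact permutation p = 0.4). At 0 h that line had a gap of 0.49 ± 0.18 (SD, n = 3), below the Ikaros 12 h mean, so a small gap was not particular to 12 h of induction.

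**Figure D3:**
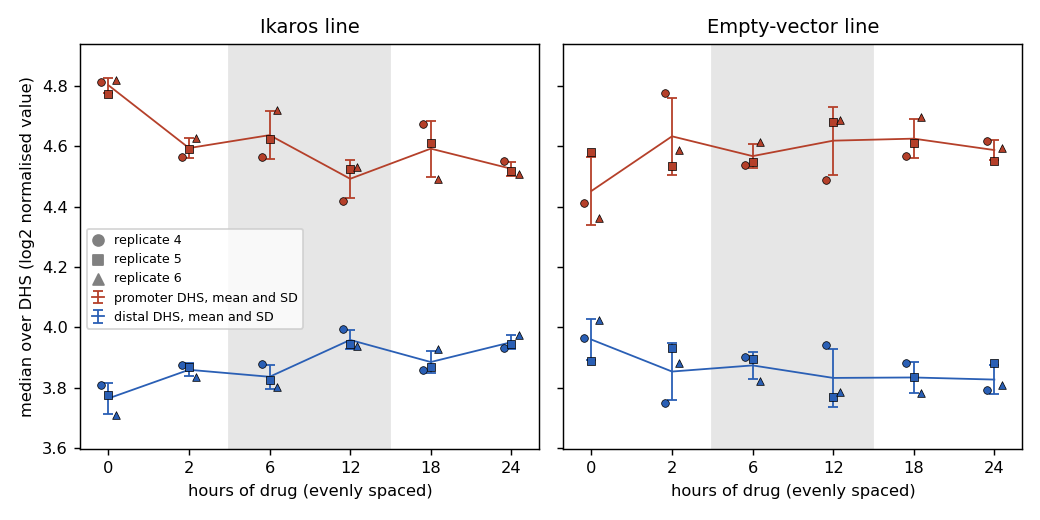
Median over promoter DHS (red) and over distal DHS (blue) in each library, as log2 normalised value on the vertical axis, by hours of drug in the Ikaros line (left) and the empty-vector line (right), with the mean and SD of 3 libraries and the 6 h and 12 h columns shaded. In the Ikaros line the promoter median drops from 4.56 to 4.72 at 6 h to 4.42 to 4.53 at 12 h while the distal median goes from 3.80 to 3.88 up to 3.94 to 3.99.

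The direction at promoters depends on the scale that joins libraries: centring each library on its promoter median takes that shift away by construction and moved the median of all DHS from 0.02 to 0.17. The gap between the classes does not change with such a shift of a whole library. The gap also followed base composition: the promoter median was 0.01 in the quartile of promoters with the lowest GC content and -0.28 in the quartile with the highest, and the distal median went from 0.16 to 0.02. After trends with level, GC content and width were removed from each library, promoter minus distal still differed by -0.05 between 12 h and 6 h, compared with -0.27 before. The part of GC content in the step was not tested further.

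Within distal DHS the step was larger where the CTCF core letters were present. The letters had been chosen from DHS that rose in these same libraries, so the medians and shares are a description. The 9715 distal DHS with the core had a median difference of 0.22 and 83.8% were higher at 12 h. The 29416 without it had a median of 0.04 and 57.0% were higher. In narrow distal DHS the medians were 0.28 and 0.09, and in broad distal DHS 0.19 and -0.0045. When narrow distal DHS were ordered by their difference, the share with the core went from 5.28% in the lowest decile to 36.9% in the highest, and in broad distal DHS from 7.05% to 57.4%.

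At promoters the median was -0.02 with the core and -0.16 without, and the share was 26.5% in the highest decile and 5.64% in the lowest. In each quartile of GC content distal DHS with the core had the higher median, with 0.28 and 0.10 in the lowest quartile and 0.14 and -0.01 in the highest. In the empty-vector line the medians of the same DHS were -0.02 with the core and -0.06 without.

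**Figure D4:**
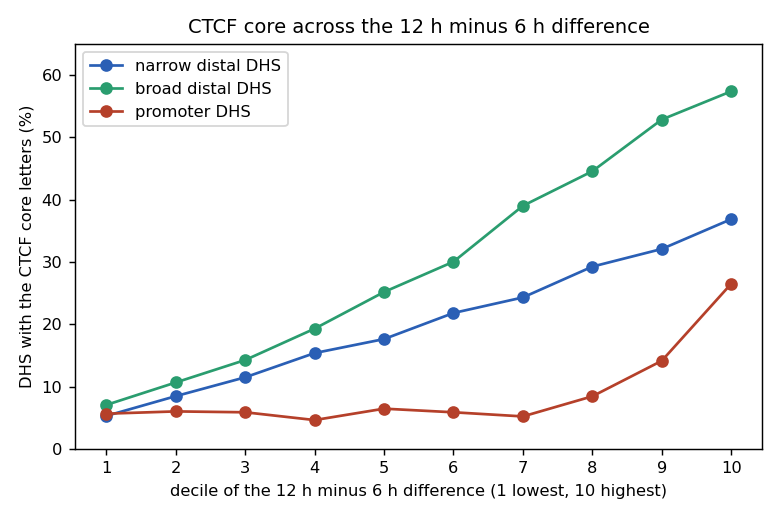
Share of DHS that hold the CTCF core letters (vertical axis, percent) in deciles of the 12 h minus 6 h difference, from the lowest (1) to the highest (10), for narrow distal, broad distal and promoter DHS. The share climbs from 5.28% to 36.9% in narrow distal DHS and from 7.05% to 57.4% in broad distal DHS, and in promoters it stays under 9% up to the eighth decile and reaches 26.5% in the last. The letters were chosen from DHS that rose between these times.

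By library, the median of distal DHS with the core minus that of the others was 0.12, -0.04 and -0.09 in replicates 4, 5 and 6 at 6 h and 0.21, 0.11 and 0.15 at 12 h. It was higher at 12 h in 3 of 3 batches, by 0.09, 0.15 and 0.24. The mean difference was 0.16, and 0.07 when the core was spelled AGNGGGC. In the empty-vector line the measure was 0.16 ± 0.09 at 6 h and 0.19 ± 0.06 at 12 h (SD, n = 3, exact permutation p = 0.7). Replicate 4 at 6 h stood above replicate 5 at 12 h, so the groups overlapped, and the exact permutation test gave p = 0.2 (0.2 after adjustment over 4 measures). Since the letters came from DHS that rose in these same libraries, that test is not independent of their choice. Both 2 h (0.05 ± 0.07) and 18 h (0.05 ± 0.03) lay between the 6 h mean of -0.0032 and the 12 h mean of 0.16 (SD, n = 3).

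Decile shares were also taken for the Ikaros core and a PU.1 site, and both were lower in the highest decile than in the lowest. GGGAA, the Ikaros core, was in 19 of the 50 DHS that rose (38.0%) and in 35.5% of narrow distal DHS. It was in 42.1% of the lowest decile of narrow distal DHS and 29.4% of the highest, and narrow distal DHS with it had a median of 0.09 against 0.16 without. GAGGAAG, a site of PU.1, a myeloid and B cell factor, was in 0 of the 50 DHS that rose, in 10.8% of narrow distal DHS, in 13.9% of the lowest decile and in 4.99% of the highest. For the other letters medians and shares among the 50 were taken, without decile shares. Narrow distal medians with and without the forkhead letters TGTTTAC were 0.14 and 0.13. For the Runx letters TGTGGT they were 0.11 and 0.14, for the E box CAGCTG 0.09 and 0.14, and for the Ets letters CCGGAAG 0.04 and 0.13. Among the 50, 12 (24%) held the Runx letters, against 20.0% of narrow distal DHS, and 8 (16%) the E box, against 12.4%. The Ets letters were in 2 (4% against 1.35%) and the forkhead letters in 1 (2% against 1.65%). At promoters, GGGCGG, the GC box of Sp factors, went with a median of -0.20 against -0.04 without it, which shares letters with GC content. GGGCGG was in 1 of the 50 (2%) and in 3.93% of narrow distal DHS.

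The step from 6 h to 12 h was the widest among the induced times of the Ikaros line, where the step from 0 h was not fitted. The SD over DHS of the difference of group means was 0.28 for this step, compared with 0.08 for the one before it (2 h to 6 h), 0.19 for the next (12 h to 18 h) and 0.13 for the last (18 h to 24 h). Those other steps called 0 DHS in limma, with 6, 1428 and 165 at an unadjusted p under 0.05. A single axis held 89.0% of the variance between the 5 induced group means. On it 6 h was lowest, with a weight of -0.58, and 12 h highest, with 0.61, while 2 h, 18 h and 24 h had -0.30, -0.15 and 0.42, so the order along it was not the order of time. The 12 group means of the deposited table span 6 of 11 possible dimensions, so means at different times borrow from each other. Replicates of one time correlated over DHS between 0.79 and 0.87, and libraries of 6 h and 12 h between 0.74 and 0.88.

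The promoter DHS of gene lists gave no call, and 1 of the non-promoter DHS inside the listed genes was called, the Ikzf1 exon above. Each list is therefore described by counts and a median beside those of all promoters, which had a median of -0.15 with 77.6% lower and 13% at an unadjusted p under 0.05 and lower. Immediate early genes, transcription factors and phosphatases that answer signals within minutes, had a median of -0.24 with 31 of 31 promoter DHS lower, 8 of them with an unadjusted p under 0.05. Apoptosis genes had -0.23 with 22 of 23 lower. Glycolysis genes, which encode the enzymes and transporters of glucose breakdown, had -0.23 with 28 of 29 lower, and the lowest was at Slc2a1, the glucose transporter gene, with -0.63.

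B-lineage factors had a median of -0.20 with 35 of 38 promoter DHS lower, and cell cycle genes had -0.20 with 31 of 33. Quiescence and Foxo targets, Myc and growth, DNA replication, adhesion and migration, and interleukin 7 receptor pathway genes lay between -0.18 and -0.14. The lowest single promoter DHS of the lists was at Stat5b, a transcription factor downstream of the interleukin 7 receptor, with -0.74.

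Pre-B receptor genes had a median of -0.13 with 16 of 21 lower. The recombination genes had -0.06 with 5 of 8 lower. Interferon and MHC genes had -0.02 with 16 of 30 lower, the nearest to 0 of the lists with 5 or more promoter DHS, and their lowest member was H2-DMa, which loads peptides on MHC class II, with -0.62. T-lineage and Notch genes had -0.27 over 7 promoter DHS, all lower, and progenitor and myeloid genes -0.13 over 2. These named extremes were chosen after their values were seen. Promoter centring raises every DHS alike, so a list median nearer to 0 than that of all promoters turns positive by construction. After trends with level, GC content and width were removed, the medians of the recombination, quiescence, progenitor and myeloid, titration locus and RT-PCR marker lists were above 0. Those of the recombination and interferon lists were also above 0 in at least 1 fit that left out libraries.

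**Figure D5:**
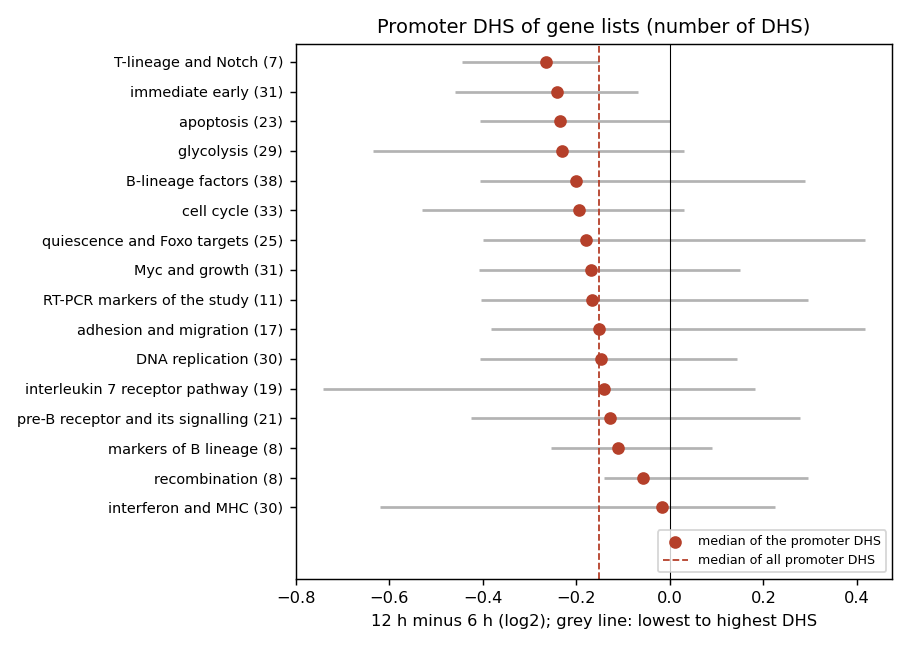
Median 12 h minus 6 h difference (log2, horizontal axis) of the promoter DHS of each gene list with 5 or more of them, the grey line running from the lowest to the highest DHS and the dashed line at the median of all 13657 promoter DHS, -0.15. List medians lie from -0.27 to -0.02.

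The DHS of listed genes that lie outside promoters were spread around 0, with list medians from -0.29 to 0.11, compared with 0.09 over the 21743 non-promoter DHS that lie in genes. The lowest of those medians was that of the 14 Ikzf1 DHS, the only titration locus with such sites. Of all non-promoter DHS in genes, 36.2% were lower at 12 h and 13862 of 21743 higher. In DNA replication genes 14 of 17 were higher, with the highest at Cdc6, a replication licensing factor, at 0.78, and that DHS held the CTCF core. In B-lineage factors 70 of 157 were higher.

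The promoter DHS of the RT-PCR markers of the study ranged from -0.40 to 0.30, and 10 of 11 were lower at 12 h. None passed the test. At Myc, the growth regulator, the promoter DHS held 4.76, 4.71 and 4.80 at 6 h and 4.26, 4.60 and 4.52 at 12 h, without overlap (difference -0.30, SE 0.12, limma adjusted p = 0.348). At Igll1, a surrogate light chain gene of the pre-B receptor, it held 5.07, 4.91 and 5.04 against 4.86, 4.73 and 4.92, and replicate 6 at 12 h overlapped the 6 h range (difference -0.17, limma adjusted p = 0.609).

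The glycolytic and amino acid transport markers had like values. At Hk2, the hexokinase gene, the narrow promoter DHS was -0.40 and the broad one -0.17. Both promoter DHS of Ldha, the lactate dehydrogenase A gene, were -0.17 and -0.10, and that of Slc7a5, an amino acid transporter gene, was -0.27. Their limma adjusted p lay between 0.461 and 0.835. The broad Hk2 DHS, the Ldha DHS with -0.17 and that of Slc7a5 were above 0 after trends were removed.

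At Foxo1, a factor of quiescence and Rag gene expression, the promoter DHS held 4.64, 4.93 and 4.96 at 6 h and 4.41, 4.79 and 4.34 at 12 h, an overlapping pair (difference -0.33, limma adjusted p = 0.503). The 3 promoter DHS of Lig4, the ligase of end joining, were -0.09, -0.08 and 0.30, and the last, a DHS of 85 bp, held 4.97, 4.95 and 4.79 at 6 h and 4.63, 5.55 and 5.41 at 12 h. At Ap2a1, a titration locus, the difference was -0.09 (limma adjusted p = 0.856). That value and both negative values at Lig4 were above 0 after trends were removed. Myog, Myod1 and Ikzf1 have no promoter DHS in the table.

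Markers of the labelled cell type were open at both times. At 6 h the median of the 8 promoter DHS of 7 of the 8 B-lineage markers was 5.05 and at 12 h 4.93, with Ebf1 at 5.98 to 6.08 at 6 h and 5.83 to 5.96 at 12 h. Their median difference was -0.11. Of 8 T cell markers only Gata3 had a promoter DHS (4.67 at 6 h and 4.41 at 12 h, difference -0.27). Of 8 myeloid markers only Lyz2 had one (3.54 and 3.60, difference 0.07). Neither of these DHS passed the test. The medians over all promoter DHS were 4.63 and 4.48. Non-promoter DHS lay inside 5 T cell marker genes (median 4.61 at 6 h), 3 B-lineage marker genes (5.42) and 1 myeloid marker gene (4.54). In bulk chromatin a change in the share of cells and a change in each cell cannot be told apart.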

How the data were processed

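DNase-seq was measured in 36 libraries. According to the methods of the study, reads were trimmed and mapped to mm10 (Bowtie2), and HOMER peaks of both a narrow and a broad size were taken per replicate. Peaks shared by all replicates of a time point were merged over times. Reads per DHS came from bedtools, low DHS were dropped, and values were normalised by RPKM with TMM and then by ARSyN against structured noise. The authors deposited log2 values: taken as base 2, the 6 libraries hold 371841 to 403166 RPM in DHS, whereas base e would exceed a whole library. The methods give only a minimum read depth, and the depth of each library is unknown here, so no counting interval is given. ARSyN uses the groups to remove noise, so the spread between replicates, and the p-values resting on it, can be too small.

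Differences were fitted with limma 3.58.1 (R 4.3.3) using eBayes with an intensity trend, on the 15 induced Ikaros libraries (5 group means), two-sided, with Benjamini-Hochberg adjustment over all 52788 DHS and a threshold of 0.05. The same step was fitted in the 15 induced Control libraries, and the difference between lines in all 36. Library medians were compared by two-sided exact permutation tests. A DHS within 1000 bp of a TSS (GENCODE vM21 basic) counted as a promoter DHS, any other as distal. Motifs were searched on both strands. Coordinates are as deposited and the base count of the start was not given in the sources used here, so sequences start 1 base after the printed start.

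Named DHS were, among those past the threshold with no overlap between the times, the 5 largest rises and falls over all DHS and over promoters (fewer where fewer passed), the called DHS of gene lists, and the promoter DHS of the study's RT-PCR markers and titration loci whatever their p. The members, lists and motifs were chosen with earlier results of these data known. So was the set of 15 libraries for the main fit, because those results had given a different spread in control groups and at 0 h. The result of a marker gene is not reported here.

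The labels give replicates 4, 5 and 6 as batches 11, 12 and 13, so the numbers pair libraries. Deviations of same-numbered 6 h and 12 h libraries from their group means correlated at 0.18, 0.06 and -0.02. The alternatives were other sets of libraries, a replicate block, other scalings and variance models, detrending by level, GC content and width, a pseudocount of 1, a filter on low values and leaving out libraries. Other spellings of the CTCF core were added after the data were seen.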

Additional observations from a re-analysis of the deposited data

Results flagged for a closer look

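The intergenic DHS on chromosome 14 near Slitrk6 was set apart because its step differed between the lines by 3.01 on the log2 scale in the test of that difference (limma adjusted p = 0.0297). It was not called under quantile normalization or after trends with level, GC content and width were removed, and the call was kept in 1 of the 12 fits that each left out 1 library of the 4 groups, the fit without replicate 6 of Control 12 h. Samples far from their group could not be looked for by that kind of rule, since each group has 3 libraries.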

How the results depend on the processing

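The count of 51 DHS for Ikaros 12 h minus 6 h was 0 with all 36 libraries, 0 with the 18 Ikaros libraries and 0 with the 6 libraries of the comparison alone. It was 2 after quantile normalization, 2 without an intensity trend, 1 after trends with level, GC content and width were removed, 287 with promoter centring (286 higher), and 182 with array weights (174 higher). Leaving out libraries gave 0 to 111. The replicate block gave 68, of which 46 were among the 51. Of the named DHS it ended the call of the one near Esp8 (limma adjusted p = 0.0571) and changed no other, Control stayed at 0, the difference between lines at 1, and the promoter-minus-distal shift at -0.27. The cause of these changes in count was not tested. Control 12 h minus 6 h was 5 with all 36 libraries and 0 to 3 when libraries were left out. The test between lines gave 0 after quantile normalization, 0 after trends were removed, and 0 to 3 when libraries were left out. Promoter minus distal ranged from -0.29 to -0.05 and the shift of distal DHS with the CTCF core from 0.07, with the core spelled AGNGGGC, to 0.20, and neither turned sign. The promoter calls of the gene lists stayed at 0 in all 21 alternatives. The depth of each library is unknown, so counting error could not be set apart from the spread between libraries.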
